A study of Mus musculus with 4 samples.

Results

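The glutathione and thioredoxin enzymes of mouse liver are described here: glutathione transferases, glutathione peroxidases, peroxiredoxins, thioredoxins and their reductases, superoxide dismutases, the enzymes that make and recycle glutathione, and the NRF2 regulators. Members were chosen by gene symbol, which took 54 of the 22155 symbols in the count table, and 48 of them had enough counts to be tested. RNA was sequenced from whole liver of wild-type mice of the C57BL/6 strain, 8 to 10 weeks old. The gavage group was fed a Lieber-DeCarli liquid diet with 5% ethanol for 10 days and then given 1 ethanol binge of 5 g per kg body weight by gavage, 9 h before the liver was taken. The other group received the same ethanol diet alone, so both groups had been exposed to ethanol and no group without ethanol was analysed here. There were 2 libraries in each group, and they are compared to see how ethanol-fed liver differs after the binge. The sources used here give no control gavage, no sex and no time of killing for mice without a binge. Whether the 2 libraries of a group are 2 animals is not stated. The tests measure the spread between these samples, and the source of that spread was not tested.

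Glutathione is the main soluble thiol of the hepatocyte. Glutathione transferases couple it to reactive compounds, glutathione peroxidases use it to reduce peroxides, and glutathione reductase returns the oxidised form with NADPH. Peroxiredoxins also reduce peroxides and are themselves reduced by thioredoxin, which thioredoxin reductase keeps supplied with electrons. Superoxide dismutases turn superoxide into hydrogen peroxide. Many of these genes are known targets of NRF2 (Nfe2l2), a transcription factor that KEAP1 holds back until electrophiles or oxidants modify it. Ethanol oxidation in the liver produces acetaldehyde and reactive oxygen species.

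Levels are given as CPM, counts scaled by library size with a composition (TMM) factor. Fold changes are log2, gavage over ethanol alone. Total counts ran from 28791281 to 30347558 per library. Hepatocyte markers were abundant in every library, with a summed level of 92816 and 111265 CPM after gavage and 134792 and 113797 CPM with ethanol alone. Replicate 1 of ethanol alone stood apart. In it, 5 markers of the acinar pancreas summed to 971 CPM, against 4.43 to 8.23 CPM in the other libraries. Its 10 markers of male-type liver summed to 2134 CPM, against 279 and 378 CPM after gavage and 199 CPM in the other library of ethanol alone. Its 10 female-type markers summed to 292 CPM, against 1250 and 2161 CPM after gavage and 2034 CPM in the other library of ethanol alone. Skeletal muscle markers were high in both libraries numbered 1, at 546 and 1.03 CPM after gavage and 273 and 8.79 CPM with ethanol alone. The part of these tissues and markers in the results below was not tested. The main counts over all members are given with and without replicate 1 of ethanol alone. Counts of the likelihood-ratio test, which was not run without it, are given with all libraries only. So are counts among members with a mean of at least 20 CPM. For members called higher by DESeq2 only a range over the libraries left out is given.

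Most members of the family stood lower after the gavage. Their summed level was 5591 and 6905 CPM after gavage, against 10401 and 9906 CPM with ethanol alone, so the groups did not overlap. In whole liver, fewer cells of a type and less RNA per cell cannot be told apart. That sum was 0.587% and 0.692% of all counts after gavage, against 0.987% and 0.988% with ethanol alone. Of the 48 members tested, 38 (79.2%) had a fold change below 0, against 48.3% of all 13309 genes tested. The median log2 fold change was -0.47 among the members tested and 0.02 among all genes tested. No member passed edgeR's quasi-likelihood test after Benjamini-Hochberg adjustment over all genes. That test called 0 of all genes too (0%), so no member is named as changed by it. At an unadjusted p under 0.05, 14 members were lower (29.2% of those tested, against 9.85% of all genes) and 2 were higher (4.17%, against 8.91%). In either direction that was 16 members, where 18.8% of all genes had such a p. Other tests made calls. DESeq2 called 12 members lower and 2 higher at an adjusted p under 0.05, or 30.4% of the 46 members to which it gave an adjusted p. Of all 12018 genes with such a p it called 9.79%, 5.43% lower and 4.37% higher. edgeR's likelihood-ratio test called Gsta3, Gpx1 and Txnrd2 lower and no member higher, where it called 1.98% of all genes lower and 2.14% higher.

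**Figure D1:**
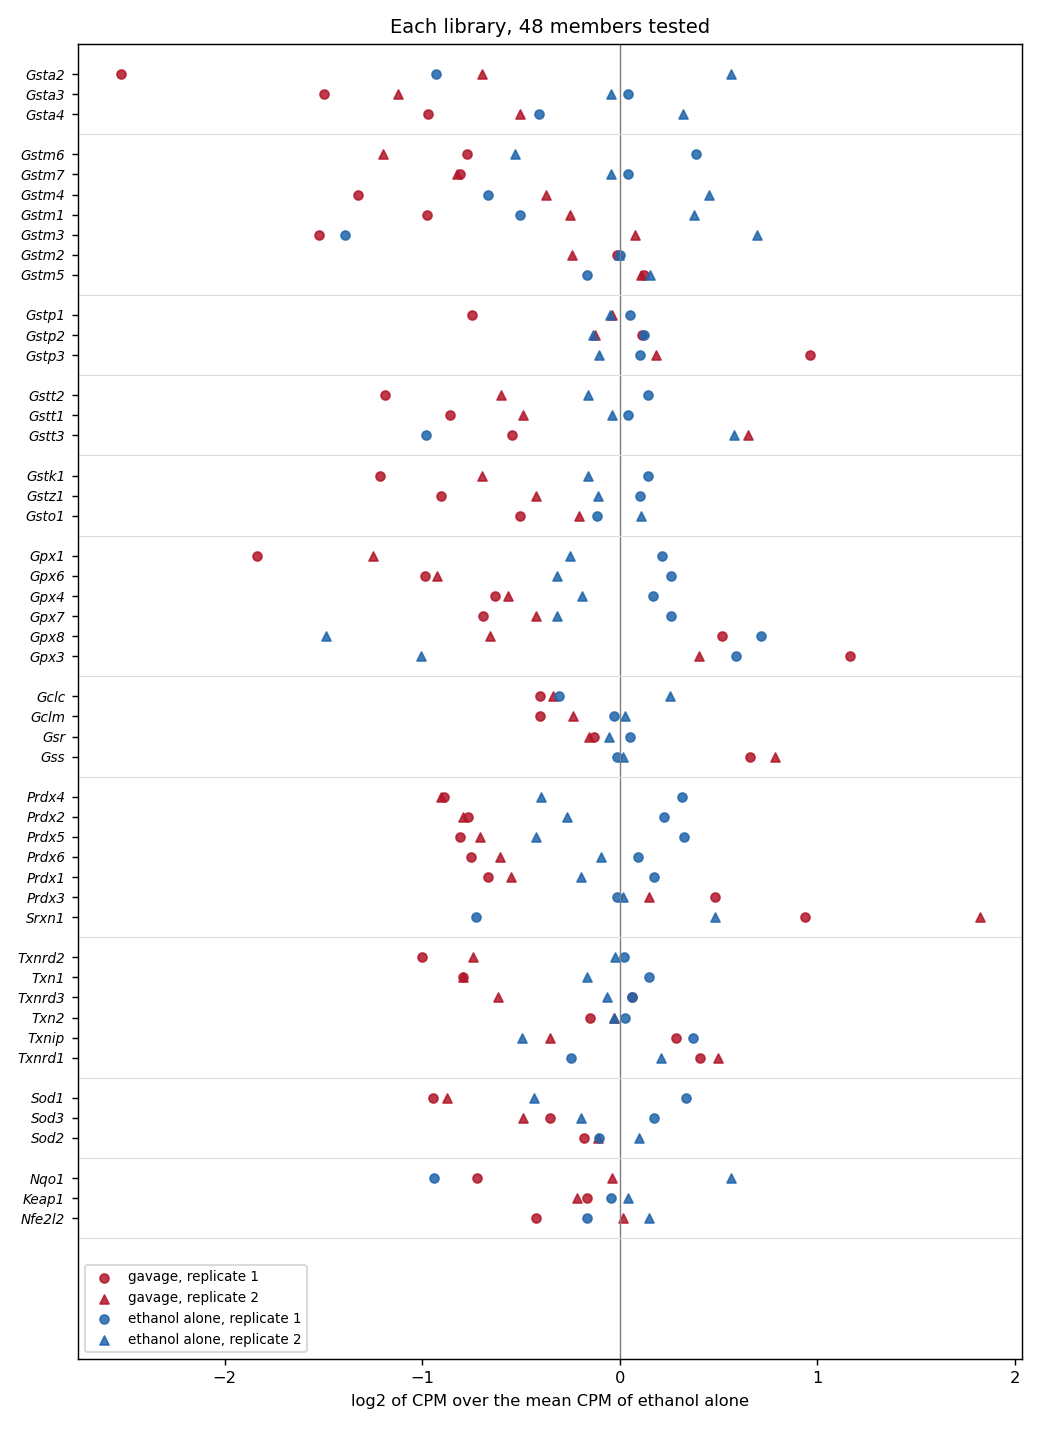
Level of each tested member in each library, as log2 of its CPM over the mean CPM of ethanol alone (horizontal axis), with members down the page by subgroup; red marks are gavage libraries, blue marks ethanol alone, circles replicate 1 and triangles replicate 2. For 28 members both red marks lie left of both blue marks, and for 5 they lie right of both.

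Among tested members, 28 had both gavage libraries under both libraries of ethanol alone (58.3%, against 27.2% of all genes), and 5 had them above (10.4%, against 27.5%). Together these were 68.8% of members, against 54.7% of all genes. Many members are abundant. Among the 5793 genes with a mean of at least 20 CPM, a level chosen after the values were seen, 13.5% were lower and 10.4% higher at an unadjusted p under 0.05. Of the 39 members above that level, 14 were lower (35.9%) and 2 higher (5.13%). Without replicate 1 of ethanol alone, 39 of 48 members had a fold change below 0 (81.3%, against 50.03% of all genes). Both gavage libraries then lay under the remaining library for 35 members (72.9%, against 37.9% of all genes) and above it for 9 (18.8%, against 38.7%). Also without it, 13 members were lower and 2 higher at an unadjusted p under 0.05, where 7.55% of all genes were lower and 5.36% higher. Without replicate 2 of ethanol alone 17 were lower and 3 higher (14.1% and 11.6% of all genes). Without replicate 1 of the gavage group 4 were lower and 2 higher (3.87% and 4.68% of all genes), and without its replicate 2 there were 9 lower and 2 higher (4.9% and 6.1% of all genes). The 12 lower calls of DESeq2 became 2 without replicate 1 of ethanol alone, 2 without replicate 1 of the gavage group and 5 without its replicate 2.

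**Figure D2:**
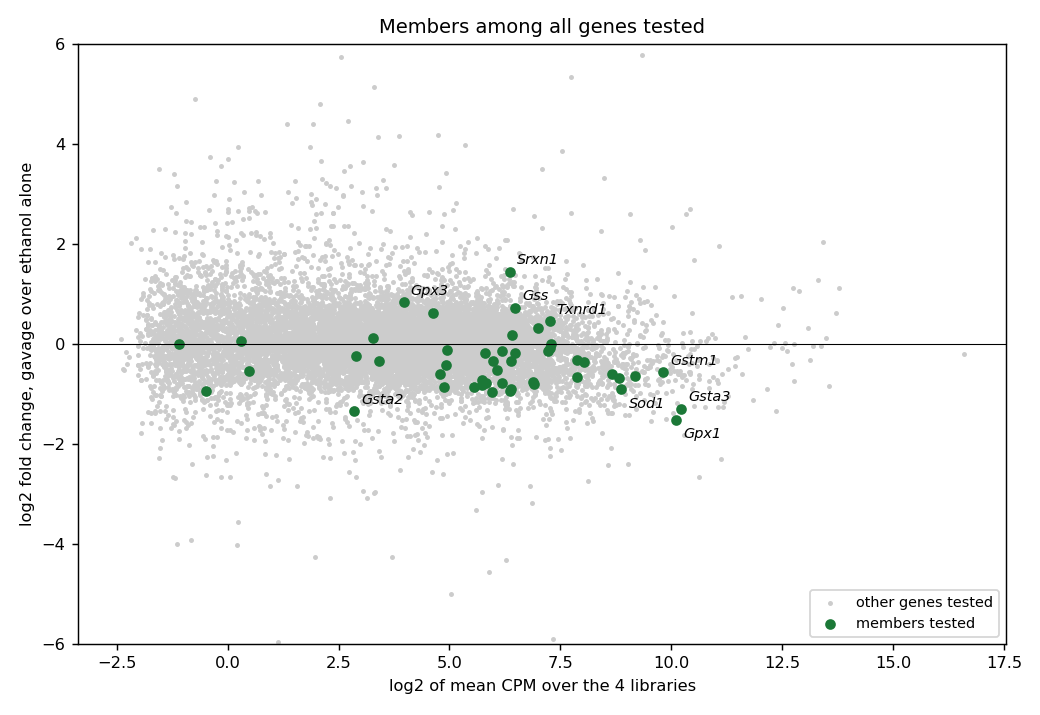
Log2 fold change, gavage over ethanol alone (vertical axis), against log2 of the mean CPM over the 4 libraries (horizontal axis) for the genes tested; green points are the 48 members tested and grey points the other genes, of which 11 lie outside the axis. Most members lie below 0, with Gpx1 and Gsta3 the lowest of the abundant ones and Srxn1 the highest.

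The promoters of members on both sides are shown next, because NRF2 is known to bind a short element, the antioxidant response element, in many of these genes. Its core TGACNNNGC was searched on both strands of RefSeq promoters (GRCm38.p6), which run from 250 bases before to 50 bases after each start site. A second form, TGAGTCAGC, also on both strands, was added after the sequences had been seen. It cannot be a match of the core, though their matches can overlap. A promoter was found for 47 members. In the lines below, capitals mark matches to either form and the sequences run 5′ to 3′ along the gene. Srxn1 and Txnrd1 stood higher after gavage, Gsta3 and Prdx1 lower, and Gstp1 overlapped between the groups.

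Srxn1 (chr2:152105274-152105573, plus strand): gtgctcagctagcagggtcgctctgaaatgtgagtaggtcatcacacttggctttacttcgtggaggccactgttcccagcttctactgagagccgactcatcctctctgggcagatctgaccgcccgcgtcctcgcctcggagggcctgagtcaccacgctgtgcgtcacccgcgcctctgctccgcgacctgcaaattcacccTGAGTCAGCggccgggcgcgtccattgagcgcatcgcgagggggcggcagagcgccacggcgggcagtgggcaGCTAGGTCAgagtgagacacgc
Txnrd1 (chr10:82858956-82859255, plus strand): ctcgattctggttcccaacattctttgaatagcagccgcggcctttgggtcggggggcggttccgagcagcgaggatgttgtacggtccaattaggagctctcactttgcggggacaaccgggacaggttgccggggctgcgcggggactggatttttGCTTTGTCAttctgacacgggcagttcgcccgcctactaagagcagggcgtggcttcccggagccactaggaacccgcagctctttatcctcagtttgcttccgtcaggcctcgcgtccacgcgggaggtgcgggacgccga
Gsta3 (chr1:21240335-21240634, plus strand): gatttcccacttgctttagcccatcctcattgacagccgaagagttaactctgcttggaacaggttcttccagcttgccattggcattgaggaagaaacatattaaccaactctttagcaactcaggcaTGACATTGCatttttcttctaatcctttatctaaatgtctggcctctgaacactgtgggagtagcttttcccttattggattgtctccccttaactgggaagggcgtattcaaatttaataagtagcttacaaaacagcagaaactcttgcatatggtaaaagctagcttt
Prdx1 (chr4:116685349-116685648, plus strand): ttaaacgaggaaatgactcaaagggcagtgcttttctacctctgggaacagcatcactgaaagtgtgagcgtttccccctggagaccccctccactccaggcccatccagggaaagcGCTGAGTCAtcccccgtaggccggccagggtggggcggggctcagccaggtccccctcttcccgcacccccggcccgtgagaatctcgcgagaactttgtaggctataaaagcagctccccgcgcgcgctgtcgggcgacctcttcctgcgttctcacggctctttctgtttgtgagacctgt
Gstp1 (chr19:4037863-4038162, minus strand): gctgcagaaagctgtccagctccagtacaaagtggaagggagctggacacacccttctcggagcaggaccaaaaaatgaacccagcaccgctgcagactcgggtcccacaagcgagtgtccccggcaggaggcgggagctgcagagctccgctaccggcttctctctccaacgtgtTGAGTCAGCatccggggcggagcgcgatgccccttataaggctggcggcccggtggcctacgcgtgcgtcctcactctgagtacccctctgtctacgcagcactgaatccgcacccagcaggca

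The core was found in promoters of 9 of the 47 members (19.1%), against 14% of the 27025 genes with a RefSeq promoter. These were Gclm, Gsta3, Gstm5, Gstm7, Nfe2l2, Prdx1, Sod1, Srxn1 and Txnrd1. Some genes have more than 1 promoter window. Counted by window, the core was found in 9 of 60 (15%), against 12.4% of the 32851 windows of all genes. Txnrd1 has 3 windows and Gstm7 has 2, with the core in 1 window of each. Both directions occurred among the 9 members. Without overlap of the groups, Srxn1 and Txnrd1 were higher after gavage and Gsta3, Prdx1, Sod1, Gstm7 and Gclm lower, while Gstm5 and Nfe2l2 overlapped. The second form was found in promoters of Srxn1, Gstp1 and Gstp2 (6.38% of members, against 0.481% of all genes). It was added after the sequences had been seen, so these shares do not test whether members hold it more often. Gstp1 and Gstp2 are neighbours on chromosome 19, and their promoters share the letters around the match. In Srxn1 the second form begins 45 bases before the start site and in Gstp1 74 bases before it. A match describes these letters and is not a site shown to be bound, and elements outside the windows were not searched.

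Among the glutathione transferases, 15 of the 19 tested members lay lower after gavage, with a median log2 fold change of -0.64, and 17 did without replicate 1 of ethanol alone. The alpha class carried the lowest values. Gsta3 (chromosome 1, 21240589 to 21265661), the most abundant alpha transferase of this liver, stood at 597 and 775 CPM after gavage, against 1738 and 1634 CPM with ethanol alone. Both gavage libraries lay under both others, and the log2 fold change was -1.30 (SE 0.25, adjusted p = 0.137 in edgeR's quasi-likelihood test). DESeq2 called it lower. Gsta4, which conjugates the lipid aldehyde 4-hydroxynonenal, also stood lower without overlap, at 33.6 and 46.4 CPM after gavage, against 49.6 and 82.1 CPM with ethanol alone. Its log2 fold change of -0.72 was -0.37 without replicate 2 of ethanol alone. Gsta2 overlapped between the groups, at 1.78 and 6.34 CPM after gavage, against 5.38 and 15.2 CPM with ethanol alone. Of the 50-base windows of its transcripts, 49.8% occur in another gene too, so its reads may have been split. Gsta1, where that share is 90.5%, had 3 and 3 counts after gavage and 1 and 10 counts with ethanol alone, too few to test.

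The mu class is a cluster of 7 genes on chromosome 3 between 107895821 and 108044894, and its members did not share 1 pattern. Gstm7 stood at 38.5 and 38.0 CPM after gavage, against 69.4 and 65.3 CPM with ethanol alone, a log2 fold change of -0.82 (SE 0.16). The libraries of each group lay close together and well apart from the other group, and DESeq2 called it lower. Gstm6 stood at 47.8 and 35.7 CPM after gavage, against 107 and 56.7 CPM with ethanol alone (log2 fold change -0.97, SE 0.35). It did not overlap, but DESeq2 did not call it, and the log2 fold change was -0.46 without replicate 1 of ethanol alone. Gstm1, the most abundant mu transferase, stood at 550.3 and 909 CPM after gavage, against 761.5 and 1404 CPM with ethanol alone, so the groups overlapped (log2 fold change -0.57, SE 0.41, and -0.12 without replicate 2 of ethanol alone). Gstm3 had 27.6 and 83.6 CPM after gavage, against 30.2 and 128 CPM with ethanol alone, and Gstm4 overlapped in the same way. These levels were low in the libraries numbered 1 and high in those numbered 2, in both groups. Gstm2 was lower without overlap but by little, at 31.5 and 26.9 CPM after gavage, against 31.9 and 31.8 CPM with ethanol alone (log2 fold change -0.13, SE 0.16). Gstm5 overlapped, at 10.1 and 9.96 CPM after gavage, against 8.24 and 10.3 CPM with ethanol alone. Windows shared with other genes were 18.9% for Gstm1 and 28.8% for Gstm3, so their counts are less certain than those of Gstm4, which shared none.

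The theta class on chromosome 10 held a similar contrast between neighbours. Gstt1, which acts on small halogenated compounds, stood at 157 and 203 CPM after gavage, against 294 and 278 CPM with ethanol alone (log2 fold change -0.66, SE 0.23). Gstt2 stood at 26.5 and 39.8 CPM after gavage, against 66.8 and 54.05 CPM with ethanol alone (-0.87, SE 0.26). DESeq2 called both lower. Gstt3 did not follow them, at 54.4 and 125 CPM after gavage, against 40.3 and 119 CPM with ethanol alone, where the libraries numbered 2 were the high ones in both groups. Of its exon bases, 27.8% overlap another gene model on the same strand. Gstt4 had 0 and 0 counts after gavage and 1 and 0 counts with ethanol alone, and the limit of 3 counts lies between 0.0955 and 0.110 CPM.

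Of the remaining transferases, Gstk1, the mitochondrial and peroxisomal kappa enzyme, stood at 46.9 and 67.2 CPM after gavage, against 120.3 and 97.5 CPM with ethanol alone. Its log2 fold change was -0.93 (SE 0.26), and DESeq2 called it lower. Gstz1, the zeta enzyme of tyrosine breakdown, stood at 379 and 528 CPM after gavage, against 761 and 656 CPM with ethanol alone. The groups did not overlap, the log2 fold change was -0.64 (SE 0.27, and -0.42 without replicate 1 of the gavage group), and DESeq2 did not call it. Genes on the other strand, among them Pomt2 (log2 fold change 0.09, SE 0.20), overlap 22.3% of the exon bases of Gstz1. Gsto1, an omega enzyme, was likewise lower without overlap, at 66.2 and 81.3 CPM after gavage, against 86.6 and 101 CPM with ethanol alone. Gsto2 had 7 and 13 counts after gavage and 3 and 3 counts with ethanol alone, too few to test. The 3 members of the pi class differed among themselves, and none had an unadjusted p under 0.05. Gstp1 stood at 42.3 and 69.2 CPM after gavage, against 73.7 and 68.6 CPM with ethanol alone, with overlap (log2 fold change -0.35, SE 0.28, adjusted p = 0.524 in edgeR's quasi-likelihood test). Gstp3 was higher without overlap, at 38.1 and 22.1 CPM after gavage, against 20.9 and 18.1 CPM with ethanol alone (log2 fold change 0.63, SE 0.29, adjusted p = 0.315 in edgeR's quasi-likelihood test). Without replicate 1 of the gavage group that value was 0.18. Gstp2 lay between 0.429 and 0.513 CPM in all libraries, and 54.3% of its windows occur in another gene, most of them in Gstp1.

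**Figure D3:**
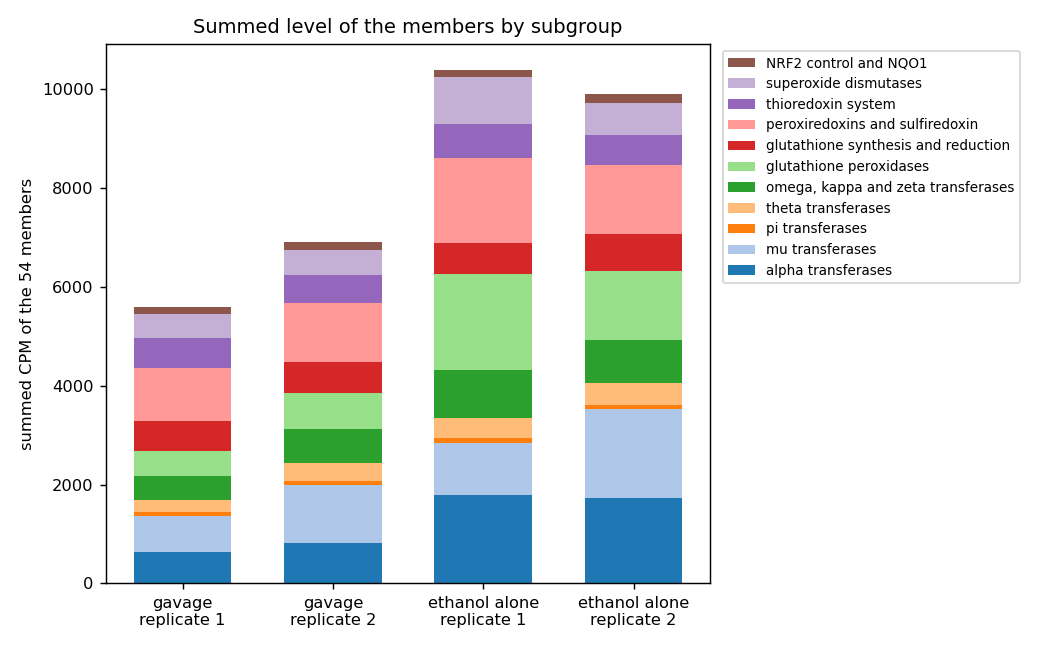
Summed CPM of the 54 members in each library (vertical axis), with bar segments for the subgroups and the gavage libraries on the left. The bars stand at 5591 and 6905 CPM after gavage, against 10401 and 9906 CPM with ethanol alone, and the segments of glutathione peroxidases and alpha transferases differ most.

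Gpx1 (chromosome 9, 108338903 to 108340343), the cytosolic and mitochondrial glutathione peroxidase and a selenoprotein, had the lowest fold change of the family. It stood at 456 and 685 CPM after gavage, against 1890.3 and 1370 CPM with ethanol alone. All windows of its transcripts were unique to it. The log2 fold change was -1.51 (SE 0.33, adjusted p = 0.149 in edgeR's quasi-likelihood test), DESeq2 called it lower, and the fold change ran from -1.84 to -1.25 with 1 library left out in turn. Gpx4, the selenoprotein that reduces lipid hydroperoxides in membranes, stood at 21.4 and 22.4 CPM after gavage, against 37.2 and 29.04 CPM with ethanol alone (log2 fold change -0.60, SE 0.18). DESeq2 did not call it, and 34.7% of its windows also occur in a pseudogene. Gpx3, the secreted plasma form, pointed the other way, at 25.2 and 14.8 CPM after gavage, against 16.8 and 5.58 CPM with ethanol alone, with overlap. Gpx6, Gpx7 and Gpx8 had at most 1.98 CPM in any library. The first 2 of these were lower without overlap, and Gpx8 overlapped. Gpx2 had 30 and 1 counts after gavage and 5 and 1 counts with ethanol alone, and Gpx5 had none in any library.

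The enzymes that make glutathione did not share a direction. Gss (chromosome 2, 155563181 to 155592810), glutathione synthetase and the last step of synthesis, stood higher, at 107 and 117 CPM after gavage, against 67.0 and 68.4 CPM with ethanol alone. Replicates lay close together and the groups far apart (log2 fold change 0.72, SE 0.18, adjusted p = 0.171 in edgeR's quasi-likelihood test). DESeq2 called it higher, and the fold change lay between 0.65 and 0.79 with 1 library left out in turn. Of the exon bases of Gss, 14.1% overlap genes on the other strand, among them Acss2, at 371 and 80.6 CPM after gavage, against 432 and 200 CPM with ethanol alone. Gclc, the catalytic subunit of the rate-limiting glutamate-cysteine ligase, stood at 223 and 234 CPM after gavage, against 238 and 352 CPM with ethanol alone. Its log2 fold change of -0.37 was -0.12 without replicate 2 of ethanol alone. The regulatory subunit Gclm stood at 195 and 220 CPM after gavage, against 254 and 264 CPM with ethanol alone. Both subunits were lower without overlap, at adjusted p-values of 0.487 and 0.440 in edgeR's quasi-likelihood test. Gsr, glutathione reductase, stood at 69.5 and 68.1 CPM after gavage, against 78.9 and 73.1 CPM with ethanol alone.

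Srxn1 (chromosome 2, 152105516 to 152111376), sulfiredoxin, which restores overoxidised peroxiredoxins, had the highest fold change of the family. It stood at 84.7 and 156 CPM after gavage, against 26.7 and 61.8 CPM with ethanol alone. The groups did not overlap, although replicates differed by 1.85 times after gavage and 2.31 times with ethanol alone. The log2 fold change was 1.45 (SE 0.50, adjusted p = 0.235 in edgeR's quasi-likelihood test), and DESeq2 called it higher. It was 0.93 without replicate 1 of ethanol alone or without replicate 2 of the gavage group, and 2.12 without replicate 2 of ethanol alone.

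Of the peroxiredoxins themselves, 5 of the 6 tested stood lower, also without replicate 1 of ethanol alone. Prdx6, the abundant 1-cysteine peroxiredoxin, stood at 330.0 and 366 CPM after gavage, against 593 and 521 CPM with ethanol alone (log2 fold change -0.68, SE 0.22). Prdx2, a cytosolic form abundant in red blood cells, stood at 53.6 and 52.6 CPM after gavage, against 107 and 75.8 CPM with ethanol alone (-0.78, SE 0.23). Prdx4, the form of the endoplasmic reticulum, stood at 58.6 and 58.0 CPM after gavage, against 135 and 82.2 CPM with ethanol alone (-0.90, SE 0.28, and -0.52 without replicate 1 of ethanol alone). With all libraries DESeq2 called Prdx6, Prdx2 and Prdx4 lower. Erythroid markers summed to 96.4 and 74.1 CPM after gavage, against 197.5 and 95.05 CPM with ethanol alone, and their part in the level of Prdx2 was not tested. Of the exon bases of Prdx2, 18.9% overlap genes on the other strand. These are Junb (log2 fold change 1.33, SE 0.30) and Rnaseh2a (-0.88, SE 0.30), and their part in its count was not tested. Prdx1 stood at 309 and 334 CPM after gavage, against 552 and 427 CPM with ethanol alone, and Prdx5 at 84.3 and 90.5 CPM, against 185 and 110.1 CPM. Both were lower without overlap, each at an adjusted p of 0.266 in edgeR's quasi-likelihood test. Without replicate 1 of ethanol alone the log2 fold change of Prdx5 was -0.36, against -0.76 with it. On the other strand Trmt112 (log2 fold change -0.48, SE 0.32) overlaps 28.3% of the exon bases of Prdx5. Prdx3, the mitochondrial peroxiredoxin, was the exception, higher without overlap, at 157 and 125 CPM after gavage, against 112 and 114 CPM with ethanol alone (log2 fold change 0.32, SE 0.21, and 0.15 without replicate 1 of the gavage group). Prdx6b had 4 and 1 counts after gavage and 1 and 6 counts with ethanol alone.

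**Figure D4:**
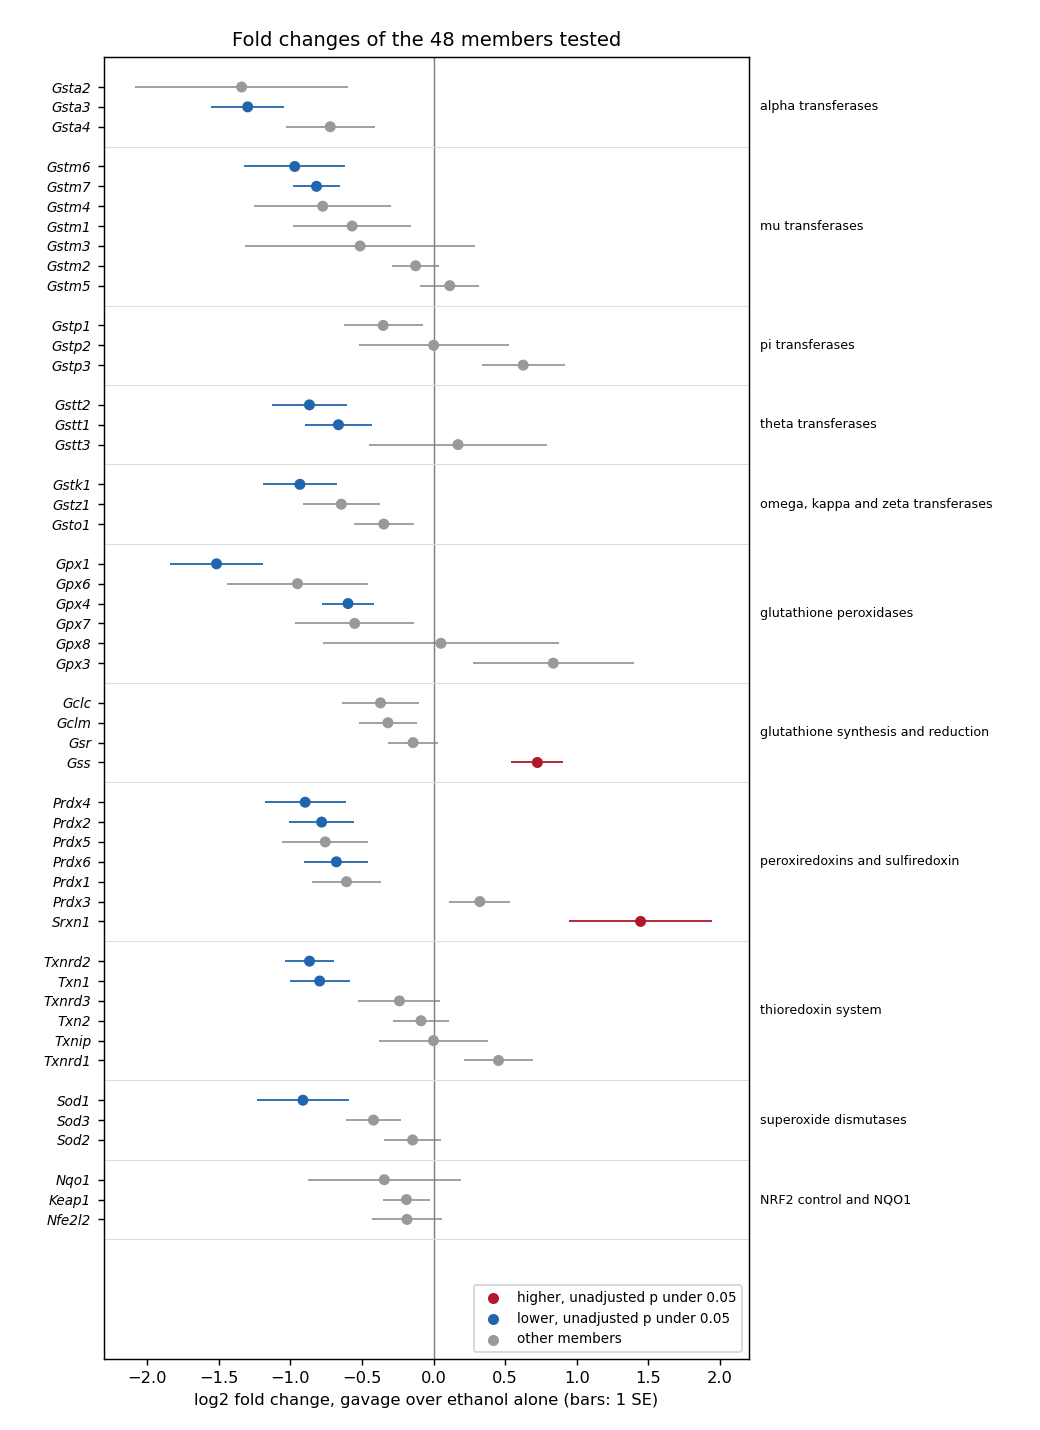
Log2 fold change of each tested member, gavage over ethanol alone, with 1 SE on each side (horizontal axis), members down the page by subgroup; blue and red mark unadjusted p under 0.05 in edgeR's quasi-likelihood test, lower and higher. There are 14 blue members, from Gpx1 at -1.51 to Gpx4 at -0.60, and the red members are Gss at 0.72 and Srxn1 at 1.45.

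In the thioredoxin system the cytosolic and mitochondrial reductases differed in sign. Txnrd2, the mitochondrial thioredoxin reductase, stood at 19.1 and 22.9 CPM after gavage, against 38.8 and 37.6 CPM with ethanol alone (log2 fold change -0.87, SE 0.17). Its adjusted p of 0.134 in edgeR's quasi-likelihood test was the smallest of the family. DESeq2 called it lower. Txnrd1, the cytosolic reductase, stood at 171 and 182 CPM after gavage, against 109 and 149 CPM with ethanol alone, higher without overlap (0.45, SE 0.24, adjusted p = 0.360 in edgeR's quasi-likelihood test). Without replicate 1 of ethanol alone that value was 0.22. Txn1, the cytosolic thioredoxin, stood at 88.0 and 87.9 CPM after gavage, against 169 and 136 CPM with ethanol alone (-0.79, SE 0.21), and DESeq2 called it lower. Txn2, its mitochondrial counterpart, stood at 142 and 155.2 CPM after gavage, against 161 and 155.2 CPM with ethanol alone. Txnip, which binds and inhibits thioredoxin, overlapped fully, at 189 and 121 CPM after gavage, against 200.4 and 110.1 CPM with ethanol alone (log2 fold change -0.00073, SE 0.38, adjusted p = 1.00 in edgeR's quasi-likelihood test). Of its exon bases, 21.4% overlap a gene on the other strand. Txnrd3, a form best known from testis, stood at 8.44 and 5.28 CPM after gavage, against 8.46 and 7.73 CPM with ethanol alone.

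The superoxide dismutases all stood lower without overlap, as did 27.2% of all genes, but by different amounts. Sod1, the cytosolic copper and zinc enzyme, stood at 317 and 333 CPM after gavage, against 771 and 453 CPM with ethanol alone (log2 fold change -0.91, SE 0.32), and DESeq2 called it lower. Replicate 1 of ethanol alone was the high library here, and without it the log2 fold change was -0.50. Sod2, the mitochondrial manganese enzyme, was lower by little, at 139 and 146 CPM after gavage, against 147 and 169 CPM with ethanol alone. Its log2 fold change was -0.15 (SE 0.20), and 21.0% of its windows occur in another gene. Sod3, the extracellular form, stood at 27.3 and 24.7 CPM after gavage, against 39.3 and 30.3 CPM with ethanol alone, and its log2 fold change of -0.42 was -0.25 without replicate 1 of ethanol alone. The messengers of the NRF2 regulators themselves differed little. Nfe2l2 stood at 71.1 and 96.5 CPM after gavage, against 84.97 and 106 CPM with ethanol alone, with overlap (log2 fold change -0.19, SE 0.24, adjusted p = 0.711 in edgeR's quasi-likelihood test). Keap1 stood at 52.7 and 50.9 CPM after gavage, against 57.2 and 60.8 CPM with ethanol alone. Nqo1, a quinone reductase widely used as an NRF2 target, stood at 7.23 and 11.6 CPM after gavage, against 6.22 and 17.6 CPM with ethanol alone, with the libraries of ethanol alone on both sides of the others.

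Compared per kilobase of exon, the order of levels at the top of the family differed between groups. With ethanol alone Gpx1 ranked highest, and after gavage Gstm1 and Gpx1 were almost level. Gpx1 averaged 532 CPM per kilobase after gavage and 1520.4 CPM per kilobase with ethanol alone. Gstm1 averaged 534 CPM per kilobase after gavage and 792 with ethanol alone, Sod1 507 and 955, and Gsta3 442 and 1087 in the same order of groups. Srxn1 ranked 21 of the 54 members after gavage and 36 with ethanol alone. Gss ranked 17 after gavage and 28 with ethanol alone. Ranks are descriptions, and neighbours at the top after gavage do not differ beyond the spread of their libraries.

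In some members the replicates differed in the same direction in both groups. Taking a ratio of 1.5 between replicates, chosen after the values were seen, replicate 2 exceeded replicate 1 in both groups for 7 of 48 members (14.6%), against 1.92% of the 13198 tested genes with a count in every library. These were Gsta2, Gstm1, Gstm3, Gstm4, Gstt3, Nqo1 and Srxn1. For Gstm3, replicate 2 was 3.02 times replicate 1 after gavage and 4.25 times with ethanol alone. For Nqo1 those ratios were 1.60 and 2.83, and for Gstt3 2.29 and 2.94. The reverse, replicate 1 over replicate 2 in both groups, held for Gpx3, Gpx8 and Txnip (6.25%, against 5.39% of all genes). Of the 7 members, Srxn1 alone also separated the groups. The labels do not say what a replicate number stands for.

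**Figure D5:**
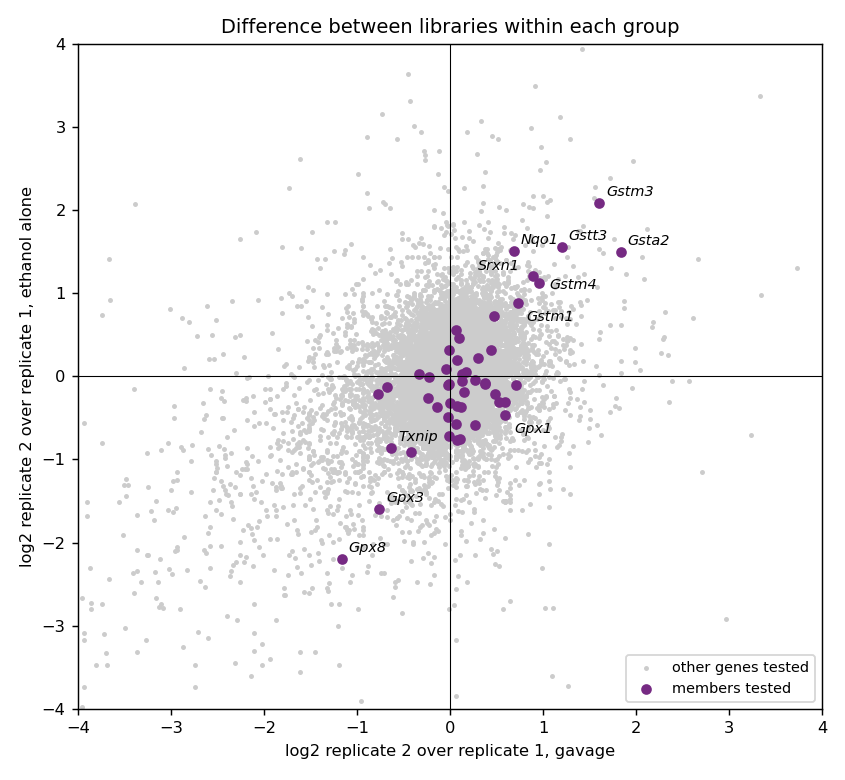
Log2 ratio of replicate 2 over replicate 1 in the gavage group (horizontal axis) and in ethanol alone (vertical axis) for the tested genes with a count in every library; purple points are members, grey points other genes, and 146 genes lie outside the axes. Gstm3, Gsta2, Gstt3, Nqo1, Gstm1, Gstm4 and Srxn1 lie at the upper right, with ratios over 1.5 in both groups.

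Among other genes of glutathione and thiol metabolism, 14 of 22 tested were lower (63.6%, against 48.3% of all genes) and 8 were higher. At an unadjusted p under 0.05, 6 were lower (27.3%, against 9.85% of all genes) and 0 higher (against 8.91%). Without overlap of the groups, 10 were lower (45.5%, against 27.2% of all genes) and 4 higher (18.2%, against 27.5%). The higher ones were Ggct, Glrx5, Hpgds and Slc25a40, with log2 fold changes from 0.17 to 0.67. Cat, the peroxisomal catalase, stood at 1164 and 1339 CPM after gavage, against 3139 and 2857 CPM with ethanol alone (log2 fold change -1.26, SE 0.24). Glo1 and Hagh, the glutathione-dependent glyoxalases of methylglyoxal detoxification, had log2 fold changes of -1.22 (SE 0.24) and -1.17 (SE 0.30). Chac2, a glutathione-degrading enzyme, and Msrb1, a selenoprotein methionine sulfoxide reductase, had -0.89 (SE 0.20) and -1.07 (SE 0.31). DESeq2 called these 5 genes lower (22.7% of those tested, against 5.43% of all genes). Mgst1, the microsomal transferase, stood at 1257 and 1491 CPM after gavage, against 2726 and 1879 CPM with ethanol alone. Slc7a11, the cystine importer, had 37 and 8 counts after gavage and 0 and 1 counts with ethanol alone, too few to test.

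Other known NRF2 targets were divided. Of 26 tested, 6 had an unadjusted p under 0.05 and were higher (23.1%, against 8.91% of all genes), 5 had one and were lower (19.2%, against 9.85%), and the median log2 fold change was 0.02. Hmox1, heme oxygenase, stood at 42.6 and 76.0 CPM after gavage, against 22.7 and 30.0 CPM with ethanol alone (log2 fold change 1.17, SE 0.33). Osgin1, an oxidative stress response gene, stood at 172 and 160 CPM after gavage, against 82.5 and 77.6 CPM with ethanol alone (1.05, SE 0.19). Sqstm1, a selective autophagy receptor, stood at 567 and 756 CPM after gavage, against 395 and 382 CPM with ethanol alone (0.77, SE 0.25). Pgd, Me1 and Abcc4 were the other higher ones, and DESeq2 called all 6 (23.1% of those tested, against 4.37% of all genes). With 1 library left out in turn, the log2 fold change of Me1 ran from 0.78 to 2.08 and that of Abcc4 from 0.98 to 2.90. For Pgd, an enzyme of the pentose phosphate pathway, replicate 1 of the gavage group was far above its partner, at 360.4 and 92.8 CPM after gavage, against 45.7 and 45.7 CPM with ethanol alone. Mafg, a small partner protein of NRF2, stood at 51.0 and 51.5 CPM after gavage, against 87.6 and 98.8 CPM with ethanol alone (-0.86, SE 0.18). Blvrb, Akr1c13, Ces1g and Cbr1 were the other lower ones. Of the 5 lower ones, DESeq2 called all but Cbr1 (15.4% of those tested, against 5.43% of all genes). Among genes of selenoprotein synthesis and other selenoproteins, 13 of 17 tested were lower, 3 of them at an unadjusted p under 0.05 (17.6%, against 9.85% of all genes). These were Selenow, Selenoh and Selenof, and DESeq2 called none. Secisbp2, which binds the selenocysteine insertion element, was the 1 higher gene at that level, at 24.3 and 26.8 CPM after gavage, against 16.7 and 18.3 CPM with ethanol alone.

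Marker lists of liver cell types differed in whether they stood apart between the groups. All 5 hepatocyte markers were lower after gavage (median log2 fold change -0.81), as were 9 of 9 Kupffer cell and macrophage markers (-0.72). Of all genes, 48.3% had a fold change below 0. At an unadjusted p under 0.05, 1 hepatocyte marker was lower (20%) and 7 Kupffer cell and macrophage markers (77.8%), against 9.85% of all genes. Among hepatocyte markers, Alb differed little (log2 fold change -0.21, SE 0.27). Apoa1 overlapped, at 4682 and 5829 CPM after gavage, against 12603 and 4940 CPM with ethanol alone. Pericentral hepatocyte markers, 7 of 10 lower, summed to 5592 and 6957 CPM after gavage, against 14132 and 11936 CPM with ethanol alone. Periportal markers, 9 of 10 lower, summed to 7523 and 13037 CPM after gavage, against 13168 and 14681 CPM with ethanol alone. All 4 tested neutrophil markers were higher, at a sum for the list of 17.8 and 6.41 CPM after gavage, against 4.87 and 4.49 CPM with ethanol alone. Markers of sinusoidal endothelium, 3 of 6 lower (median log2 fold change 0.02), and of stellate cells and fibroblasts, 2 of 8 lower (0.08), showed no common direction. Lyve1 was the 1 endothelial marker at an unadjusted p under 0.05. It was higher, with a log2 fold change of 1.20 (SE 0.24), and DESeq2 called it. Of T and B cell markers 6 of 7 were lower, and of cholangiocyte markers 3 of the 4 tested, with 0 at that level in either list. Adipocyte markers were high in both libraries numbered 1, at 97.1 and 12.2 CPM after gavage, against 60.9 and 7.96 CPM with ethanol alone. Female-type liver markers summed to 1250.5 and 2161 CPM after gavage, against 292 and 2034 CPM with ethanol alone. The part of these cell types in the lower levels of the family was not tested.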

How the data were processed

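RNA of whole liver was sequenced in 2 libraries from mice given a gavage and 2 from mice fed ethanol alone, grouped by their titles, since the treatment protocol reads the same for all. The deposited values are raw counts per gene symbol, made by the authors from the reads. Per the submitters' processing notes the tools were STAR 2.6.0a, HTSeq, edgeR and bcl2fastq 2.20.0.422 and the build was GRCm38. No source used here gives the annotation, the strand setting or how multi-mapping reads were counted. The notes on RNA handling name both a TruSeq and a KAPA kit.

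Tests on the counts used edgeR 4.0.16 under R 4.3.3. The filterByExpr filter (minimum count 10, minimum total 15) kept 13309 genes. TMM factors were 1.05 and 1.00 for gavage and 0.951 and 0.998 for ethanol alone. The 2-sided quasi-likelihood F-test without covariates was adjusted by Benjamini-Hochberg over all tested genes, with a threshold of 0.05. The SE is the absolute log2 fold change over the square root of F. The common dispersion was 0.0966. Replicates differed beyond sampling noise, with a chi-square of 135 per degree of freedom in the gavage pair and 126 in the ethanol pair. DESeq2 1.42.0, limma 3.58.1 (voom) and other settings were alternatives, and the tests were tried on simulated data. The counts kept by the filter, scaled by the TMM factors, give 3 counts a level of 0.0955 to 0.110 CPM per library, which covers counting error only. Positions, exon lengths and shared 50-base windows came from GENCODE M21 (GRCm38), and promoters from RefSeq (GRCm38.p6). The members, the lists and the naming rule were chosen with earlier results of these data known. Library values with tests were given for members without overlap of the groups and with an unadjusted p under 0.05, and for the most abundant member of each subgroup. Other members and the promoters printed were picked after their values were seen.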

Additional observations from a re-analysis of the deposited data

How the results depend on the processing

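With DESeq2 in place of edgeR's quasi-likelihood test, the number past the adjusted threshold was 1177 of all genes and 14 members, and with edgeR's likelihood-ratio test 549 and 3, against 0 and 0 in the reported test and with limma-voom. With the replicate number as a block, 410 genes and 2 members (Srxn1 and Gsta2) passed, and 4 members were higher at an unadjusted p under 0.05. Deviations of same-numbered libraries from their group means correlated at 0.49 over 13309 genes. The numbers are not stated to pair the samples, so this is no test of a stronger effect. With each library left out in turn, 0 to 31 genes and 0 members passed, 4 to 17 members were lower and 2 to 3 higher at an unadjusted p under 0.05, and the median log2 fold change of the members tested ran from -0.67 to -0.36. A library left alone in its group was assumed to vary like the other group. DESeq2 calls among members, left out likewise, ran from 0 to 1 higher, against 2 with all libraries, and from 2 to 12 lower (5 without replicate 2 of the gavage group), an alternative chosen after seeing the data. Size factors of DESeq2, library totals, no filter and the stricter filter (1 CPM in at least 2 libraries) each gave 0 calls, 13 to 16 members lower and 2 higher at an unadjusted p under 0.05.

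Of the 22 members named by rule, Nfe2l2 reversed without replicate 1 of the gavage group (log2 fold change 0.019), and ran from -0.43 to 0.019 with each library left out. Txnip, near 0, reversed with limma-voom (0.021), library totals (0.093) and the replicate block (0.028), and ran from -0.42 to 0.47 with each library left out. No other of the 22 reversed in the settings run. The cause of these differences was not tested. Members under about 1 CPM rest on few counts.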
